A study of Mus musculus with 3 samples.

Results

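Amino acid transporters of 7 solute carrier families were described in chromatin-associated RNA of mouse macrophages. The genes were taken by symbol from the families Slc1, Slc3, Slc6, Slc7, Slc36, Slc38 and Slc43. Each has a protein-coding transcript and a symbol that ends in a number, which leaves out Slc6a20a and Slc6a20b. The rule gave 61 genes of 22028 protein-coding and 55536 annotated genes. The rule itself uses no measured value. The symbols also bring in carriers of other solutes, such as creatine, taurine, monoamines and nucleobases.

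The series held 3 libraries of 1 group, numbered as biological replicates 1, 2 and 3. They came from macrophages grown from bone marrow of C57BL/6J mice. They were exposed to 100 ng/ml Lipid A, the lipid anchor of bacterial lipopolysaccharide that Toll-like receptor 4 recognises, for 12 h, followed by 12 h of washout. The cells then received Lipid A at 100 ng/ml for another 40 min, and RNA of the chromatin fraction was depleted of ribosomal RNA and sequenced. All 3 libraries carry both exposures. Without unexposed or singly exposed cells to set beside them, the values below are levels, and no response to Lipid A can be read from them. The labels give 1 strain-level donor for all libraries and do not say whether they came from separate animals, so the spread below is that between these samples and may be technical. Replicate 1 was made from 1 µg of RNA, replicate 3 from 500 ng and replicate 2 from 250 ng.

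The libraries held 13802716 to 17187524 expected counts in annotated genes, and protein-coding genes took 27.4% to 31.9% of all TPM (a level per transcript length whose sum is the same in every library). No pair of libraries was a duplicate, since 28.9% to 49.2% of 14320 genes differed beyond counting noise in each pair. All 6 macrophage markers were detected, with a summed level of 806 ± 56.0 TPM (SD, n = 3). The 4 T cell, 2 natural killer cell and 3 erythroid markers were at 0 counts in every library of the gene tables. The transcript table made directly from the reads put the T cell markers Cd3d and Cd3g at means of 475 and 31.1 counts, with Cd3e at 1.44 and Cd2 at 0, and the B cell marker Ms4a1 at 45.5 counts. Markers of B cells, neutrophils and mast cells reached at most 0.58 TPM in sum in the gene tables. Of 4 fibroblast markers, Col1a1 and Col3a1 were detected at 0.26 and 0.36 TPM, with 0 counts in replicate 1, and the list summed to 0.68 ± 0.66 TPM. From the reads all 4 reached 10 counts, with a sum of 2.97 ± 0.98 TPM, beside 1065 ± 184 TPM for the macrophage list. The T cell list summed to 16.2 ± 3.49 TPM from the reads, of which Cd3d gave 15.6 TPM.

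Amino acid transporters move amino acids across the plasma membrane and the membranes of lysosomes, by exchange, by coupling to sodium or protons, or by facilitated diffusion. Several Slc7 proteins are light chains that reach the cell surface bound to a heavy chain of the Slc3 family, and others carry cationic amino acids without one. In macrophages these carriers are known for supplying arginine to nitric oxide synthase and arginase, cystine to glutathione synthesis, and glutamine and leucine to growth signalling through mTORC1.

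Of the 61 genes, 25 were detected, that is, had a mean of at least 10 expected counts. This was 41.0% of them, beside 49.7% of all protein-coding genes. The median over all 61 genes was 0.083 TPM, beside 0.44 TPM over all protein-coding genes. In these bulk libraries, fewer cells with a transcript and less of it per cell cannot be told apart. The 25 detected genes had a median of 15.3 TPM, beside 7.32 TPM over the 10952 detected protein-coding genes. In the top 10% of protein-coding genes by TPM stood 9 of the 61, or 14.8%. They were Slc6a6, Slc43a2, Slc38a6, Slc3a2, Slc38a1, Slc38a2, Slc38a9, Slc7a8 and Slc6a8. The top 25% of protein-coding genes held 17, or 27.9%. Summed over all 61 genes, the level was 1111, 1287 and 1337 TPM in replicates 1, 2 and 3, or 0.405% to 0.419% of the protein-coding TPM. The 5 highest genes held 75.4% of it.

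**Figure D1:**
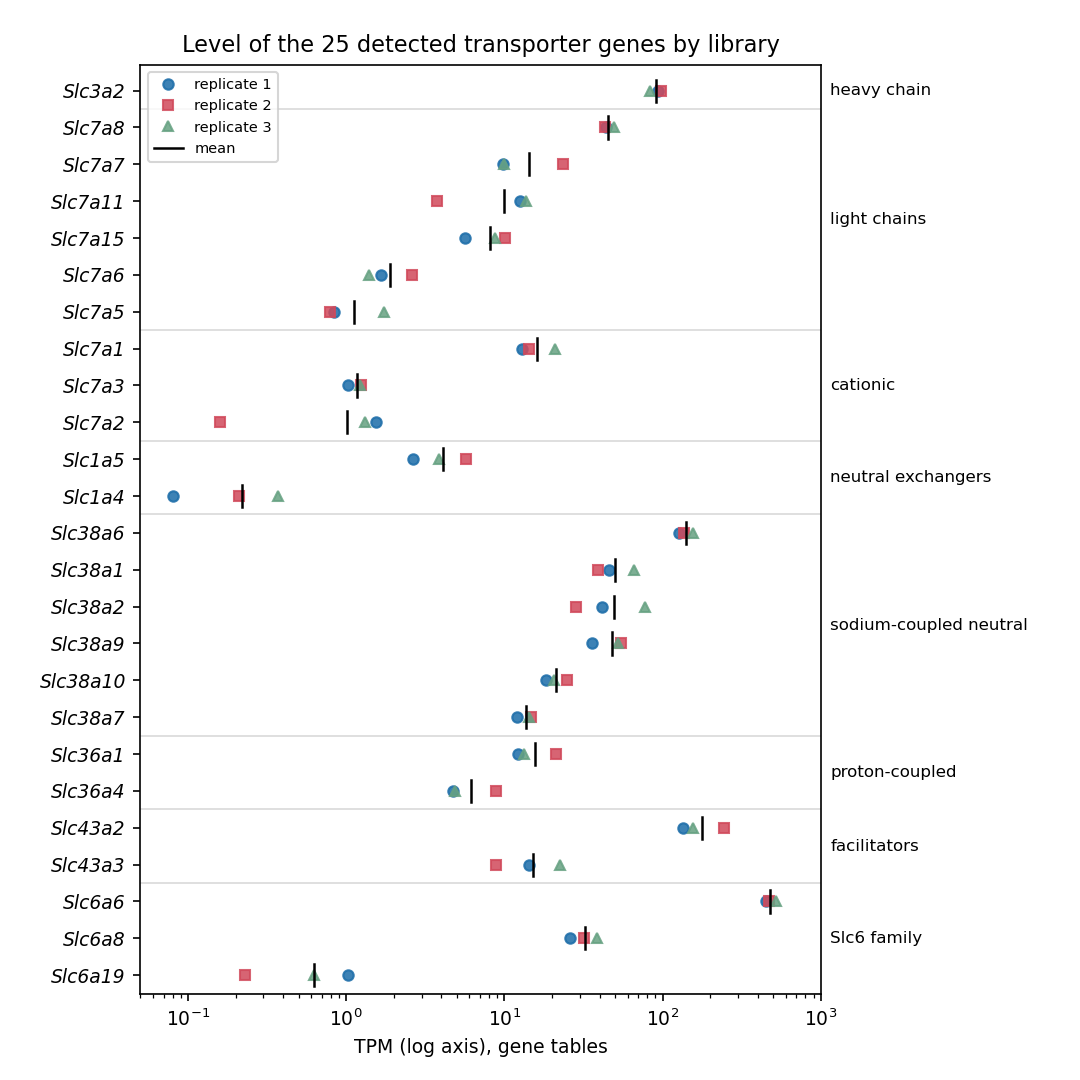
TPM of the 25 detected transporter genes on a log axis, grouped by role, with 1 point for each of the 3 libraries and a black tick at the mean. Slc6a6 stands highest at 449 to 519 TPM, and the points of Slc7a11 and Slc7a2 lie far apart, with replicate 2 at the low end.

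Many of these genes held much of their level in transcripts annotated as retained intron, in which at least part of 1 intron is still present. The junctions of 4 such introns are shown as examples, from the 9 detected genes with over 50% of their TPM in such transcripts. Each line gives 20 exonic bases in lower case and 20 intronic bases in capitals, 5′ to 3′ on the gene's strand, from the GENCODE M21 transcripts on mm10. The Slc6a6-210 intron lies at chr6:91726247-91735090 on the plus strand and is intron 5 of 14 of the coding transcript. The Slc7a11-204 intron, at chr3:50438916-50442984 on the minus strand, is intron 1 of 11. These introns have 8844 and 4069 bases, more than the 1553 bases of Slc6a6-210 and the 2677 of Slc7a11-204. Neither transcript holds the whole intron, and only the intron start is shown. The Slc38a2-202 intron is 144 bases long, at chr15:96698038-96698181 on the minus strand, and is intron 3 of 15. The Slc1a5-202 intron is 71 bases long, at chr7:16795953-16796023 on the plus strand, and is intron 7 of 8.
Slc6a6-210 intron start: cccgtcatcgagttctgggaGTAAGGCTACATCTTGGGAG
Slc7a11-204 intron start: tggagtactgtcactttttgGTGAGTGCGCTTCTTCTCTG
Slc38a2-202 intron start: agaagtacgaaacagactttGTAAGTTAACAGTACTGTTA
Slc38a2-202 intron end: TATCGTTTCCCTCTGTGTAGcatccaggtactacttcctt
Slc1a5-202 intron start: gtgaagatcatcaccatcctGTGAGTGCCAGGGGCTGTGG
Slc1a5-202 intron end: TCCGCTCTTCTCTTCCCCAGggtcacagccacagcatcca
Across the 9 genes examined, all 9 intron starts opened with GT, and the 4 intron ends that lay inside the annotated transcript closed with AG. These are the usual first and last bases of spliced introns. The introns were taken from annotated coding transcripts, so these bases describe the annotation and not the RNA of these libraries.

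The share of a gene's TPM in retained-intron transcripts could be taken for 18 detected genes that have both kinds of transcript. Its median was 49.6%, beside 41.1% over 6715 detected protein-coding genes. As a share of counts, which does not divide by transcript length, the medians were 31.7% and 25.3%. In the table made from the reads, the share of TPM was 48.1% beside 42.5%, and the share of counts was 29.6% beside 29.7%, so on that scale the transporters did not stand above the other genes. Over 50% of the TPM lay in such transcripts in 9 of the 18 genes, or 50%, beside 35.9% of the 6715 genes. In falling order these were Slc1a5, Slc7a11, Slc7a1, Slc6a6, Slc6a8, Slc7a8, Slc38a1, Slc38a7 and Slc38a2, from 97.2% to 50.1% on average. Slc38a7 and Slc6a6 were far lower on the count scale, at 13.3% and 22.9%, while Slc38a2 was higher, at 57.2%. For the other 7 detected genes, Slc1a4, Slc7a2, Slc7a7, Slc7a15, Slc36a1, Slc36a4 and Slc38a10, no retained-intron transcript is annotated. A read inside an intron is counted only where an annotated transcript covers it, so these shares are no measure of all unspliced RNA.

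Among the heavy chains, Slc3a2, which encodes the CD98 heavy chain, was high, and Slc3a1, the heavy chain known from kidney and gut, was not detected. Slc3a2 (chr19:8706882-8723369, minus strand) had 93.4, 97.6 and 83.0 TPM in replicates 1, 2 and 3, a mean of 91.3 ± 7.49 (SD, n = 3). It ranked 672 of 22028 protein-coding genes. Its level from the reads was 218 TPM as deposited. Rescaled over protein-coding genes, the means were 306 TPM in the gene tables and 536 TPM from the reads. Of the 218 TPM, 81.4 and 42.2 TPM lay on the short transcripts Slc3a2-203 and Slc3a2-204, both at 0 in the transcript table behind the main values. The 3 libraries lay close together, and CPM (counts scaled by the library's total in annotated genes) was lowest in replicate 3, with 95.1, against 132 and 117 in replicates 1 and 2. The retained-intron share was low, at 15.3% ± 1.89 of TPM, and coding transcripts held 77.4 TPM.

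Of the 10 light chains, 6 were detected, and the list summed to 74.5, 84.0 and 84.5 TPM in replicates 1, 2 and 3. The heavy chain Slc3a2 was above that sum in replicates 1 and 2 and below it in replicate 3. By coding transcripts alone, Slc3a2 had 77.7, 84.7 and 69.9 TPM, beside 34.7, 48.7 and 39.8 TPM for the sum of the light chains, and stood above it in all 3 libraries. Slc7a8 led the list in the gene tables, with 44.0, 43.3 and 49.0 TPM in replicates 1, 2 and 3. It encodes LAT2, an exchanger of neutral amino acids, and 56.9% ± 2.04 of its TPM lay in its retained-intron transcript. From the reads Slc7a7 came first, with a mean of 69.9 TPM beside 44.5 TPM for Slc7a8. Slc7a7, which encodes y+LAT1, the exporter of arginine and lysine, had 9.76, 23.4 and 10.01 TPM, with replicate 2 above both others. Of this, the 572-base transcript Slc7a7-211 gave 0.60, 12.5 and 1.65 TPM. In CPM the libraries were closer, at 15.2, 18.4 and 10.7, and the table from the reads gave 64.2, 87.2 and 58.4 TPM. Slc7a7 overlaps Oxa1l on the opposite strand, which had 292 counts in replicate 2, against 122 and 113 in replicates 1 and 3. Whether reads were assigned by strand is not given in the sources used here, so reads of overlapping genes cannot be told apart.

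Slc7a11 encodes xCT, the light chain that exchanges cystine for glutamate. It had 12.5, 3.75 and 13.6 TPM in replicates 1, 2 and 3, with 509, 151 and 517 counts. Replicate 2 stood apart on the low side, and the highest CPM was 4.20 times the lowest. Of its TPM, 95.1% ± 1.28 lay in retained-intron transcripts, and of its counts 85.7% ± 2.39. The share was alike in all 3 libraries, at 93.7%, 95.5% and 96.2%. Transcript Slc7a11-204, whose intron junction is printed above, held 6.79 TPM on average, while all coding transcripts together held 0.46 TPM. By coding transcripts alone Slc7a11 stood at percentile 53.7 of the protein-coding genes, against 78.6 by all its transcripts. A same-strand gene inside it, Gm37498, had 126, 37 and 120 counts in replicates 1, 2 and 3, low in the same library.

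Slc7a5 encodes LAT1, a leucine importer that pairs with the CD98 heavy chain, and it was among the lowest detected genes. It had 0.84, 0.79 and 1.74 TPM in replicates 1, 2 and 3, from 30, 37 and 76 counts. Its heavy chain Slc3a2 was thus at 91.3 TPM beside 1.12 TPM for Slc7a5. The transcript table made directly from the reads gave 9.65 TPM for Slc7a5, of which 8.01 TPM came from Slc7a5-203, a transcript of 174 bases. Its main coding transcript Slc7a5-201 had 1.05 TPM in the gene tables' quantification and 1.11 TPM in that from the reads. The overlapping opposite-strand gene Gm20388 had a mean of 128 counts. The other light chains detected were Slc7a15 with a mean of 8.15 ± 2.25 TPM and Slc7a6, which encodes y+LAT2, with 1.89 ± 0.64 TPM (SD, n = 3 each). Slc7a9, Slc7a10 and Slc7a12 had 0 counts in every library, and Slc7a13 had a mean of 0.67 counts.

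Among the 5 genes of the cationic amino acid transporter list, 3 were detected. Slc7a1, which encodes CAT1, the widely used arginine importer, had 12.9, 14.4 and 20.8 TPM in replicates 1, 2 and 3. Its retained-intron share was 71.8% ± 2.15 of TPM and 50.1% ± 2.18 of counts, and replicate 3 was the highest. Slc7a2, which encodes CAT2, the importer linked to arginine use in activated macrophages, had 1.55, 0.16 and 1.32 TPM. Replicate 2 had 15 counts, against 132 and 55.4 in replicates 1 and 3, and the highest CPM was 10.9 times the lowest, the widest spread of the 25 genes. In the table made from the reads the gap was smaller, with 2.79, 1.58 and 1.82 TPM in replicates 1, 2 and 3, and replicate 2 was again the lowest. Slc7a2 overlaps Gm26584 on the opposite strand, with 195, 31 and 108 counts, so both were lowest in replicate 2. Slc7a3, which encodes CAT3, had 1.17 ± 0.12 TPM and is one of 3 detected genes whose libraries did not differ beyond counting noise. Slc7a4 and Slc7a14 were not detected.

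The Slc1 family was low. Slc1a5 encodes ASCT2, a glutamine exchanger, and it had 2.65, 5.70 and 3.87 TPM in replicates 1, 2 and 3, a mean of 4.07 ± 1.54. Nearly all of it, 97.2% ± 4.94 of TPM, lay in retained-intron transcripts, led by Slc1a5-202 with 3.16 TPM. That transcript holds the 71-base intron whose junctions are printed above. The coding transcript Slc1a5-201 held 0 counts in replicates 1 and 2 and 11.2 counts in replicate 3, so its mean of 0.11 TPM rests on 1 library. Slc1a4, which encodes ASCT1, had 11 counts on average and 0.22 ± 0.15 TPM. The 5 glutamate transporters, Slc1a1, Slc1a2, Slc1a3, Slc1a6 and Slc1a7, were all under 10 counts in the gene tables and summed to 0.22 ± 0.16 TPM. From the reads 4 of the 5 reached 10 counts, with Slc1a3 at a mean of 133 counts.

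The Slc38 family holds the sodium-coupled neutral amino acid transporters and their lysosomal relatives. Of its 11 genes, 6 were detected, and the family made up 25.9% of the summed TPM of the 61 genes. Slc38a6 (chr12:73286779-73354049, plus strand) led with 128, 137 and 156 TPM in replicates 1, 2 and 3. It ranked 384 among protein-coding genes, with 75.9 TPM in coding transcripts.

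Slc38a2 encodes SNAT2, a glutamine and alanine importer whose gene is known to respond to amino acid shortage. It had 41.3, 28.6 and 77.2 TPM in replicates 1, 2 and 3. Replicate 3 was the highest and replicate 2 the lowest, and CPM differed 2.62-fold between them. Its neighbour Slc38a1, which encodes SNAT1, lies 44478 bases away on the same strand of chromosome 15. Slc38a1 had 46.1, 38.8 and 65.9 TPM, in the same order of libraries. The means, 49.0 ± 25.2 TPM for Slc38a2 and 50.3 ± 14.02 TPM for Slc38a1, differed by less than either SD. Both divided evenly between kinds of transcript, with retained-intron shares of 50.1% ± 1.42 and 53.0% ± 3.56 of TPM. For Slc38a2 the retained-intron transcript Slc38a2-202 held 24.4 TPM and the coding transcript Slc38a2-201 held 24.6 TPM.

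Slc38a9 encodes a lysosomal arginine sensor that acts on mTORC1. It had 36.03, 54.8 and 52.3 TPM in replicates 1, 2 and 3, with 42.3% ± 1.199 of TPM in retained-intron transcripts and 10.6 TPM in its coding transcript. Slc38a7, which encodes a lysosomal glutamine exporter, had 12.0, 14.8 and 14.2 TPM, and its CPM differed by only 1.06-fold between libraries, the smallest spread of the 25 genes. Slc38a10 had 18.3, 24.8 and 20.6 TPM, a mean of 21.2 ± 3.27 (SD, n = 3). Slc38a3, Slc38a5, Slc38a8 and Slc38a11 had 0 counts in every library, and Slc38a4 had a mean of 0.67 counts.

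Both detected proton-coupled transporters were highest in replicate 2. Slc36a1 encodes PAT1, which exports small amino acids from lysosomes and acts on mTORC1, and it had 12.3, 21.1 and 13.3 TPM in replicates 1, 2 and 3. Slc36a4 had 4.74, 8.83 and 4.85 TPM. On chromosome 11, Slc36a2 lies 19272 bases from Slc36a1 and had 0 counts in every library, and Slc36a3 lies 6761 bases beyond it and had a mean of 2 counts.

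Of the Slc43 facilitators, Slc43a2 (chr11:75531694-75577575, plus strand) was the second most abundant of the 61 genes in the gene tables, and in the table from the reads it came after Slc38a6, with 307 TPM beside 312 TPM. It encodes LAT4, which lets leucine, phenylalanine and methionine cross without exchange. It had 135, 244 and 155 TPM in replicates 1, 2 and 3, with 7459, 12979 and 8549 counts, and ranked 285. Replicate 2 stood above both others, and its range overlaps that of Slc38a6. Only 15.6% ± 3.59 of its TPM lay in retained-intron transcripts, and coding transcripts held 113 TPM. The overlapping antisense gene Gm45606 had 591, 1141 and 372 counts, also highest in replicate 2. Slc43a3, whose product is known to carry purine nucleobases and not amino acids, had 14.4, 8.83 and 22.6 TPM, lowest in replicate 2. Slc43a1, which encodes LAT3 and lies 72984 bases from Slc43a3, had 0 counts in every library.

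The Slc6 family was split between 2 abundant genes and many that were not detected. Slc6a6 (chr6:91684053-91759066, plus strand) encodes the taurine transporter and alone held most of the 513 ± 41.9 TPM of the 19 Slc6 genes taken. It had 449, 469 and 519 TPM in replicates 1, 2 and 3, a mean of 479 ± 35.9 (SD, n = 3), and ranked 54 among protein-coding genes. The libraries lay within 1.19-fold of each other in CPM. Of its TPM, 67.9% ± 0.85 lay in 5 retained-intron transcripts, led by Slc6a6-208 with 90.7 TPM and Slc6a6-210 with 81.9 TPM. As a share of counts this was 22.9% ± 1.54, since TPM divides by length: Slc6a6-208 has 481 bases and the coding transcript Slc6a6-201 has 6186. By coding transcripts alone Slc6a6 had 113, 122 and 140 TPM, beside 81.7, 147 and 110 TPM for Slc43a2. Its mean of 125 ± 13.5 TPM was the highest of the 61 genes, but Slc43a2, at 113 ± 32.8 TPM, was above it in replicate 2. Slc6a6 overlaps Gm45828 on its own strand and Gm44981 and 4930517G19Rik on the other, with means of 1833, 2427 and 947 counts beside 11247 for Slc6a6.

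Slc6a8, which encodes the creatine transporter, had 25.8, 32.0 and 38.6 TPM in replicates 1, 2 and 3, with 58.6% ± 4.62 of TPM in retained-intron transcripts. Slc6a19, which encodes the neutral amino acid transporter B0AT1 of gut and kidney, had 17.3 counts on average and 0.63 ± 0.40 TPM. Its counts were 32, 12 and 8 in replicates 1, 2 and 3, and its coding transcripts held only 0.013 TPM. Of the 19 Slc6 genes taken by the rule, the other 16 were under 10 counts. Among them were Slc6a11, Slc6a12, Slc6a13 and the carriers of glycine (Slc6a5, Slc6a9), noradrenaline (Slc6a2), dopamine (Slc6a3) and serotonin (Slc6a4). They also included Slc6a7, Slc6a14, Slc6a15, Slc6a16, Slc6a17, Slc6a18 and Slc6a21. Slc6a20b, which the rule did not take, was detected with a mean of 121.5 counts and 1.64 ± 0.68 TPM.

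**Figure D2:**
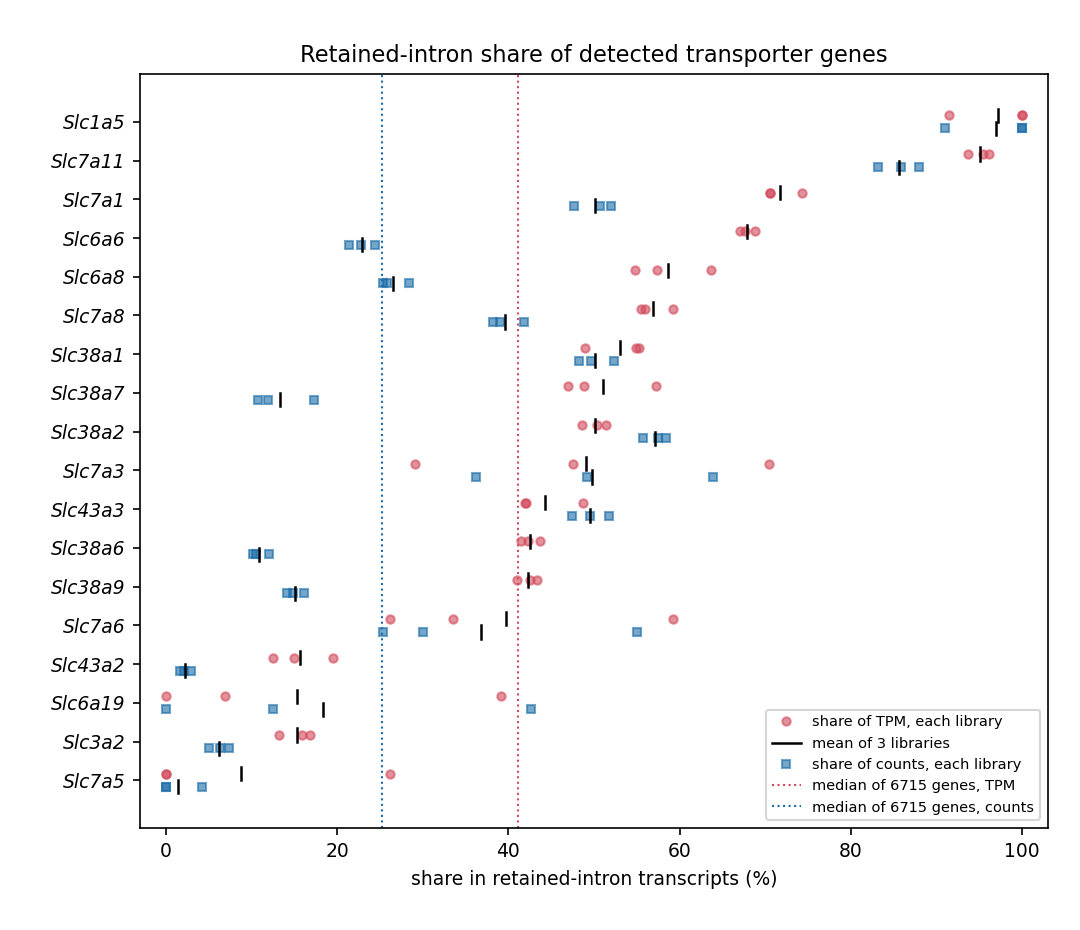
Share of each gene's level in retained-intron transcripts, in percent, for the 18 detected genes with both kinds of transcript. Red circles give the share of TPM and blue squares the share of counts in each library, black ticks the means, and dotted lines the medians of 6715 protein-coding genes, 41.1% of TPM and 25.3% of counts. Slc1a5 and Slc7a11 lie at the right on both scales, while Slc6a6 has 67.9% of TPM but 22.9% of counts in such transcripts.

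In all, 36 of the 61 genes were under 10 counts, and 19 of these had 0 counts in every library. The 19 were Slc1a6, Slc6a3, Slc6a5, Slc6a7, Slc6a11, Slc6a14, Slc6a15, Slc6a16, Slc6a17, Slc6a18, Slc7a9, Slc7a10, Slc7a12, Slc36a2, Slc38a3, Slc38a5, Slc38a8, Slc38a11 and Slc43a1. By counting error alone, 3 counts remain possible behind a 0, which is 0.217 CPM in replicate 1, 0.175 CPM in replicate 2 and 0.182 CPM in replicate 3. Over all 61 genes, the table made from the reads reached 10 counts for 43, or 70.5%, beside 66.9% of protein-coding genes. It did so for 18 of the 36 genes, or 50%, beside 34.3% of the protein-coding genes under 10 counts. They included Slc1a1, Slc1a2, Slc1a3, Slc1a7, Slc6a2, Slc6a5, Slc6a9, Slc6a15, Slc6a17, Slc6a18, Slc7a13, Slc7a14, Slc36a2, Slc38a5, Slc38a8, Slc38a11 and Slc43a1. The gap was wide for Slc1a3, with 1, 0 and 2 counts in the gene tables and 54.1, 156 and 188 counts from the reads. For Slc6a5 the gene tables had 0 counts in every library and the reads gave 75.3, 171 and 181. The level of these genes thus differed by table, and the cause of the difference was not tested.

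Among the 25 detected genes, 22 varied between libraries beyond counting noise, by a chi-square test of each gene's counts against Poisson sampling at an adjusted p threshold of 0.05. This was 88%, beside 64% of the detected protein-coding genes and 60% of all annotated genes tested. The exceptions were Slc1a5, Slc7a3 and Slc38a7. The test gains power with counts, and the median highest-to-lowest ratio of CPM was 1.54 among the 25 genes beside 1.41 among detected protein-coding genes. The median biological coefficient of variation from edgeR was 0.203 beside 0.209. A ratio above 2 was seen in 7 genes, or 28%, beside 15.9%. They were Slc7a2, Slc6a19, Slc7a11, Slc1a4, Slc38a2, Slc43a3 and Slc7a5, and the counts of Slc6a19 and Slc1a4 averaged 17.3 and 11.

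Replicate 2 was the lowest in CPM for 12 of the 25 genes, or 48%, beside 22.8% of detected protein-coding genes. It was the highest for 9 genes, or 36%, beside 54.8%. Scaling with TMM factors, which rest on the genes between the extremes, gave 13 genes lowest in replicate 2, or 52%, beside 36.1%, and 7 genes highest, or 28%, beside 40.9%. Replicate 1 was the lowest in CPM for 5 genes, or 20%, beside 29.1%, and replicate 3 for 8 genes, or 32%, beside 48.1%. The highest CPM was in replicate 1 for 7 genes, or 28%, beside 27%, and in replicate 3 for 9 genes, or 36%, beside 18.2%. With TMM, replicate 1 was lowest for 6 genes (24%, beside 30.6%) and highest for 6 (24%, beside 29.1%), and replicate 3 was lowest for 6 (24%, beside 33.3%) and highest for 12 (48%, beside 30%). The genes low in replicate 2 included Slc7a11, Slc7a2, Slc38a2, Slc38a1, Slc43a3 and Slc7a1. Those high in it included Slc43a2, Slc36a1, Slc36a4, Slc7a7 and Slc7a6. Replicate 2 was the library made from 250 ng of RNA, and the part of RNA input in this pattern was not tested.

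**Figure D3:**
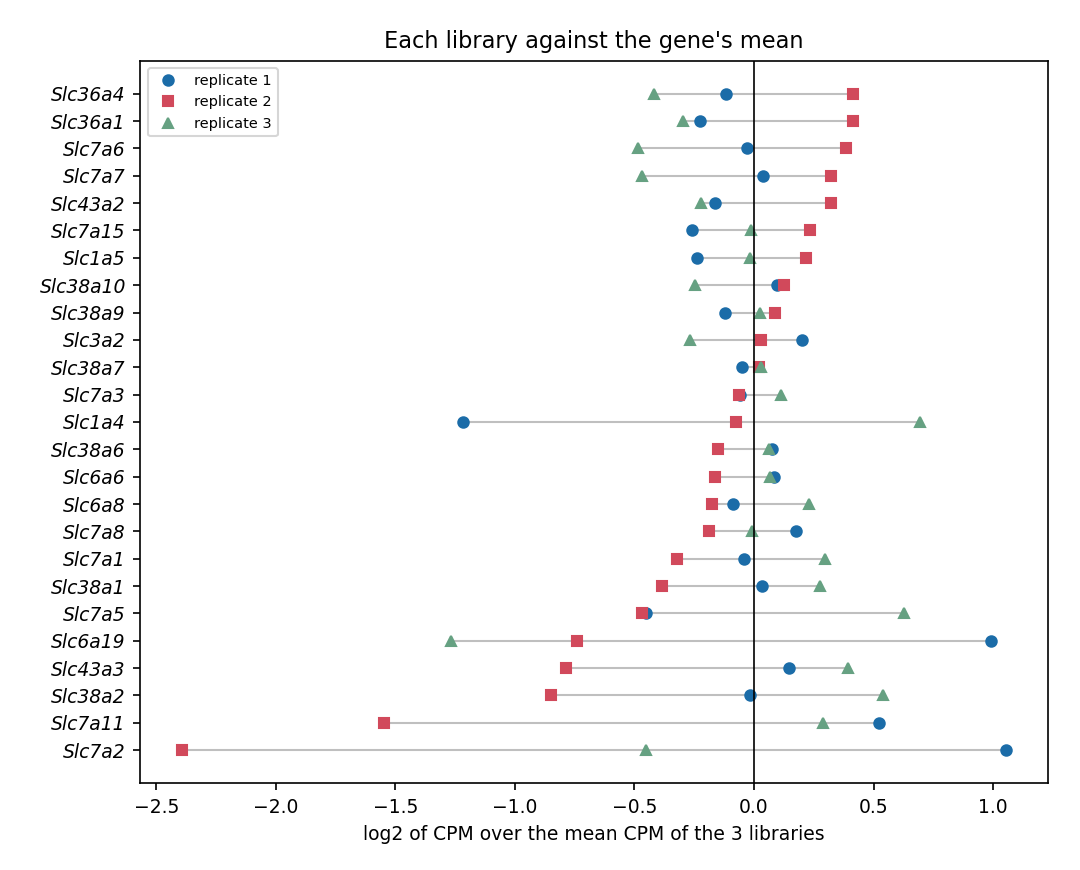
CPM of each library relative to the gene's mean over the 3 libraries, on a log2 scale, for the 25 detected genes, ordered by the position of replicate 2 (red squares). Slc36a4 stands at the top with replicate 2 high, and Slc7a11 and Slc7a2 at the bottom with replicate 2 low.

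The gene tables and the table made from the reads were compared after rescaling TPM over protein-coding genes. The median ratio of gene tables to reads was 1.01 over the 25 genes, beside 1.05 over protein-coding genes. Over 2-fold lower in the gene tables were 2 genes, or 8%, beside 11.2%: Slc7a5 at a ratio of 0.157 and Slc7a7 at 0.277. Slc3a2 at 0.571 and Slc38a6 at 0.611 were also lower in the gene tables, and Slc38a2 at 1.54, Slc6a19 at 1.56 and Slc1a4 at 1.61 were higher. None was over 2-fold higher, beside 0.931% of protein-coding genes. For Slc7a7 the gene tables gave a mean of 234 counts and the reads 906, and the table from the reads placed 28.3 TPM on Slc7a7-207 and 14.7 TPM on Slc7a7-205, which were at 0 in the other table.

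**Figure D4:**
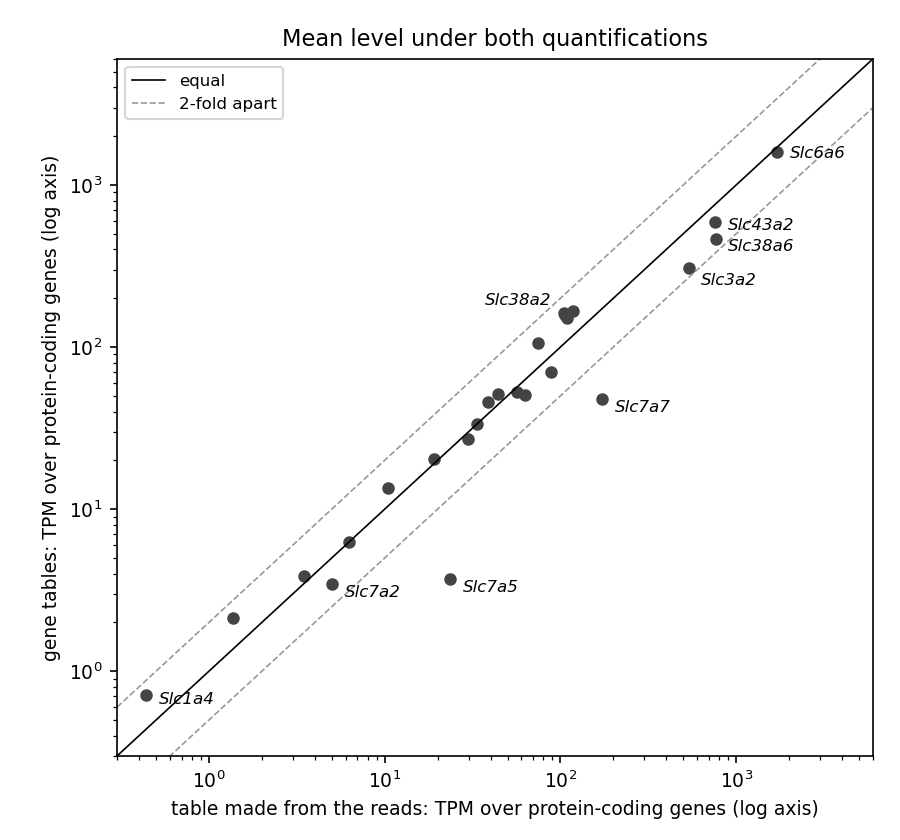
Mean TPM of the 25 detected genes, rescaled over protein-coding genes, from the gene tables (vertical, log axis) and from the table made directly from the reads (horizontal, log axis). The solid line marks equal values and the dashed lines a 2-fold difference; Slc7a5 and Slc7a7 lie below the lower dashed line.

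Genes that sense or respond to amino acids were measured beside the transporters. Of 26 genes of mTORC1 amino acid sensing, 23 were detected, with a median of 10.7 TPM over the list. The highest were Fnip2 with 259 TPM, Flcn with 59.1 TPM and Fnip1 with 55.7 TPM, which form the folliculin complex that acts on Rag GTPases. Rragb, Lamtor2 and Castor1 were not detected. All 20 genes of a list for the amino acid response through ATF4 were detected, with a median of 10.02 TPM. The list takes in kinases that sense other stresses, such as Eif2ak2, beside the amino acid sensor Eif2ak4 (GCN2), at 24.9 TPM. The highest were Eif2ak2 (PKR) with 218 TPM, Ppp1r15a (GADD34) with 152 TPM and Ddit3 (CHOP) with 74.8 TPM, the last at the lower-numbered of its annotated loci. Of 15 further carriers that the rule did not take, most of them of amino acids or peptides, 12 were detected, with a median of 7.42 TPM over the list. Slc15a3, a lysosomal peptide carrier, led with 222 TPM, followed by Slc16a10, a carrier of aromatic amino acids, with 70.1 TPM and the mitochondrial glutamate carrier Slc25a22 with 46.1 TPM. Slc6a20a, Slc15a1 and Slc32a1 were not detected.

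Promoter windows of 300 bases, from 250 before to 50 after a start site, were matched by symbol in RefSeq on GRCm38.p6 for 43 of the 61 genes, with 64 windows. The motif TGATGNAA, the core of the composite element that ATF4 binds, was searched on both strands and found in 5 of the 64 windows, or 7.81%, beside 3.97% of all 32851 windows. These windows belong to Slc7a11, Slc1a4, Slc7a7 and Slc6a21. The motif TGACNNNGC, the core of the element that NRF2 binds, was in 11 windows, or 17.2%, beside 12.4%, among them those of Slc38a2, Slc7a1, Slc36a1 and Slc7a6. A motif of NF-kB was in 2 windows, of Slc6a12 and Slc6a13, beside 1.63% of all windows, and its stricter form was in 0, beside 0.155%. A match is a description of letters and not a bound site.

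The windows of Slc7a11, at chr3:50443564-50443863, and of Slc38a2, at chr15:96699679-96699978, both on the minus strand, are shown as examples. Both genes have a match and differed over 2-fold in CPM between libraries. This also held for Slc1a4, which is not shown. Capitals mark TGATGNAA matches in Slc7a11, which open 66 and 47 bases before the start site, and a TGACNNNGC match in Slc38a2, which opens 27 bases before it. The second match in Slc7a11 reads on the other strand.
Slc7a11 promoter: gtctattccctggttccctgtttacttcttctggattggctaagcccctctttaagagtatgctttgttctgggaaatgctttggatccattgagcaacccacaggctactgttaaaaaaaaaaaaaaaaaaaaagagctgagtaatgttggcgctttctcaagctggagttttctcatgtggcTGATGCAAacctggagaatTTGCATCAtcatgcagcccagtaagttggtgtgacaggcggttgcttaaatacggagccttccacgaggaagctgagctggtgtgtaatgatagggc
Slc38a2 promoter: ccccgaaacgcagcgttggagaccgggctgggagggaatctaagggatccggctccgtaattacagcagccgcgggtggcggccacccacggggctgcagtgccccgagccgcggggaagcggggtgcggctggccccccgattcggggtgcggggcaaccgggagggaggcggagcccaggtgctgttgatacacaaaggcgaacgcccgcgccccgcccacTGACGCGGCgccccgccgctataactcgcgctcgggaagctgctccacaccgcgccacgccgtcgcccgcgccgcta
Both genes were among the 12 of the 25 detected genes with their lowest CPM in replicate 2. So was Slc7a1, which also has a match. Slc7a7, Slc36a1 and Slc7a6, with a match as well, had their highest CPM there, and Slc1a4 had its lowest in replicate 1. A part of these motifs in the spread was not tested.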

How the data were processed

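Chromatin-bound RNA of 3 libraries, all of 1 group, was measured by total RNA-seq. Per the file headers and labels, the authors made gene and transcript tables of expected counts and TPM by aligning to the mm10 transcriptome of GENCODE M21, and the columns follow RSEM. A further transcript table, with columns as in kallisto, holds estimated counts and TPM that the authors obtained from the reads without that alignment. The strand setting is not given in the sources used here, nor is any program or version. Main values are those of the gene tables, and the table from the reads, summed to genes, is an alternative. TPM is as deposited unless rescaling over protein-coding genes is stated, and the deposited scales of the tables differ. In annotated genes the depth was 13802716, 17187524 and 16502809 counts for replicates 1, 2 and 3, and 26345 entries that name no gene (1.13%, 0.324% and 0.279% of counts) were left out of totals.

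The members and lists were chosen with earlier results of these data known. Detected means a mean of at least 10 counts. 1 undetected member is not reported here by name. Every detected member was named, the 12 highest and 7 set members (Slc3a2, Slc7a5, Slc7a11, Slc7a1, Slc7a2, Slc1a5 and Slc38a2) with each library's value, and the 3 highest of each related list. With 1 group no contrast was fitted. Variation beyond counting noise was tested on rounded counts by a chi-square test against Poisson sampling, adjusted by Benjamini-Hochberg over 14320 annotated genes. Dispersion came from edgeR 4.0.16 (R 4.3.3) with an intercept alone and TMM factors, and size factors from DESeq2 1.42.0. Tables were handled with pandas 2.3.3 under Python 3.11.15. The scripts were tested on simulated data. Sequences came from GENCODE M21 transcripts and RefSeq promoter windows. Alternatives were the table from the reads, other count minimums, CPM, other scalings, another background and leaving out each replicate in turn.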

Additional observations from a re-analysis of the deposited data

How the results depend on the processing

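The count of 25 detected genes became 43 from the reads and 38 at a minimum of 1 count. The 9 genes in the top 10% became 4 against detected protein-coding genes alone. The median percentile of 41.5 became 43.4 from the reads, 42.5 by CPM and 66.8 against detected genes, and lay between 41.7 and 43.1 with a replicate left out. The share of the 5 highest genes, 75.4%, became 79.7% from the reads. From the reads 35 genes varied beyond counting noise, in place of 22. The 7 genes above 2-fold between libraries became 4 at a minimum of 50 counts, 22 with no filter and 11 from the reads, and 3 to 5 with a replicate left out (4 without replicate 2 and 3 without replicate 3). The 2 genes differing 2-fold between quantifications became 5 with TPM as deposited and 1 at a minimum of 50 counts. The median retained-intron share of 49.6% became 48.1% from the reads and 31.7% as a share of counts, and lay between 46.3% and 50.3% with a replicate left out. By definition, a gene's highest-to-lowest ratio cannot rise when a library is left out. A background of detected genes alone also leaves out the lowest genes. The cause of the other changes was not tested. The share of counts, coding transcripts only, and TMM for the lowest and highest library were chosen after seeing the data. From the reads, the mean TPM of 14 of the 25 detected genes, as deposited and not rescaled, moved by more than 1 SD. The TPM scales of the tables differ. Slc38a7 went from 13.7 TPM in the gene tables to 15.8 TPM from the reads. Once rescaled over protein-coding genes, it went from 45.5 to 38.7 TPM. No paired analysis was possible because the series has 1 group. Of the 36 genes under 10 counts in the gene tables, 18 reached 10 from the reads, so what can be said of them differs by table.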
